A study of Mus musculus with 8 samples.

Results

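Romidepsin was compared with saline in Shank3-deficient mice, across all genes, 1 day after the last dose. The comparison holds 5 of the 8 libraries of the study, chosen by their labels: 3 from saline-treated and 2 from romidepsin-treated animals. The Shank3 protein is a scaffold of the postsynaptic density at excitatory synapses, and loss of human SHANK3 is a known cause of autism-related disorders. All 5 libraries came from male heterozygous Shank3+/ΔC mice, in which exon 21 is deleted from 1 copy so that the C-terminal end of the protein is lost, so the saline controls carry the mutation too. The labels give an age of 5 to 6 weeks, while the series text allows up to 8 weeks. The dose of romidepsin was 0.25 mg/kg into the peritoneum, once daily for 3 days, with saline on the same schedule. The other 3 libraries, from wild-type littermates, are not part of the contrast. They entered the choice of genes tested, the scaling and the estimate of spread, and are shown beside some values. Poly(A) RNA from prefrontal cortical slices was sequenced, and the deposited values are read counts per gene. The labels do not say whether each library is a separate animal, so each p-value reflects only how much these libraries varied, which may be technical.

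Romidepsin is a cyclic peptide drug that blocks class I histone deacetylases, the enzymes that remove acetyl groups from histone tails inside corepressor complexes. Acetylated histones mark active promoters and enhancers and are read by bromodomain proteins, and deacetylase inhibitors raise some transcripts in dividing cells, of which the cell cycle inhibitor gene Cdkn1a is the classic example. In neurons, histone acetylation is known to take part in the transcription of activity-induced and synaptic genes. The study's title speaks of an epigenetic rescue of social deficits in these mice. The question here is which transcripts of the mutant cortex differed between drug and saline.

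The 5 libraries held 15156318, 9640523 and 7783537 counts on genes for saline 1 to 3, and 10143846 and 9855883 for romidepsin 1 and 2. No pair of them was near-duplicate, since the chi-square per degree of freedom between 2 libraries was 3.23 to 11.8, where sampling noise alone would give about 1. The root mean square log2 difference over genes was 0.35 to 0.43 between saline libraries, 0.33 between the romidepsin libraries and 0.29 to 0.41 across the groups. The smallest of all 10 differences was between saline 1 and romidepsin 1, so libraries of different groups were at times as close as libraries of the same group. Saline 2 stood apart on the first principal component (36.7% of the variance, score -34.0, the others 3.80 to 12.8). It also held more of the ribosomal RNA precursor Rn45s, 1.12% of its counts against 0.316% to 0.611%. The labels give the cell type as neurons. The libraries also held defining markers of glia and vessels, for example 1606, 1202 and 2442 CPM of the myelin gene Mbp in the saline and 1443 and 1635 in the romidepsin libraries.

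No gene passed the test. Of 14809 genes tested, 0 reached an adjusted p under 0.05 (edgeR quasi-likelihood test, Benjamini-Hochberg adjustment), and the smallest adjusted p was 0.602, for Lag3. An unadjusted p under 0.05 was reached by 483 genes, 3.26% of those tested, with 256 higher (1.73%) and 227 lower (1.53%) under romidepsin. Independent genes without any difference would give about 740. Both romidepsin libraries lay outside the range of the 3 saline libraries in 3102 genes (20.9%), above it in 1594 (10.8%) and below it in 1508 (10.2%). If the group labels were arbitrary, 2 libraries would lie outside the range of 3 others about as often. Lack of overlap alone therefore shows no difference. The shares above are the background for every count given here. The median log2 fold change was -0.0029, with the 5th percentile at -0.38 and the 95th at 0.33. With limma-voom 0 genes passed (434 at an unadjusted p under 0.05). With DESeq2 on the same genes 2 passed, Lag3 (log2 fold change 1.04) and Etnppl (-1.02), both at an adjusted p of 0.0344, and with DESeq2's own filtering of all genes 0 passed (smallest adjusted p = 0.0585, 297 genes at an unadjusted p under 0.05).

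Given how much these libraries varied, which may be technical, the fit also bounds how large a difference can be. The 95% interval of the fold lay inside 1.5-fold in either direction for 10140 genes (68.5%) and inside 2-fold for 12690 (85.7%). Among the 8847 genes whose mean log2 CPM was 4 or more, those shares were 96.3% and 99.7%. A 2-fold difference at this time was therefore outside the interval for nearly all genes of moderate or high level, while for genes with few reads the intervals were wide. These intervals are for single genes and are not adjusted for the number of genes. The fitted difference was past 1.5-fold in 232 genes higher and 361 lower, and past 2-fold in 40 and 95.

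**Figure D1:**
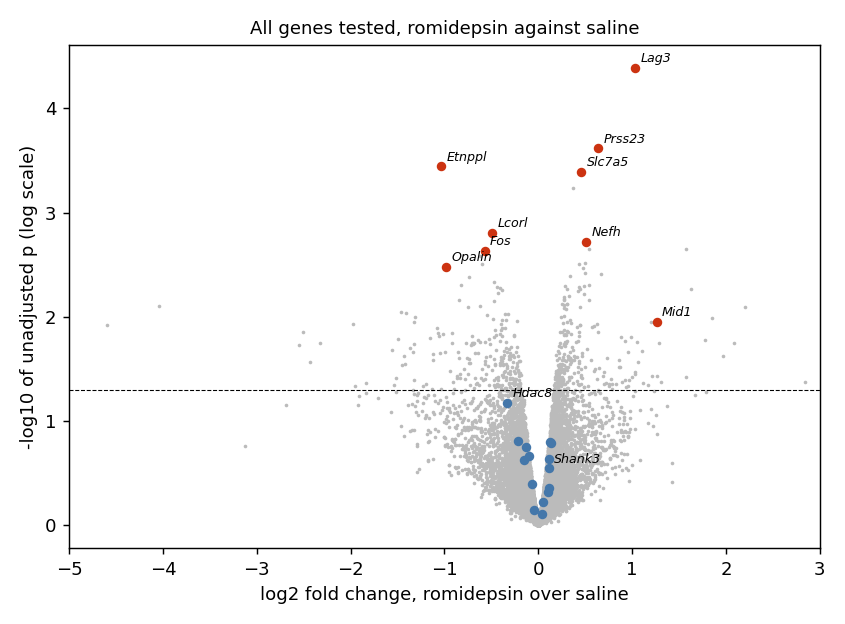
Log2 fold change of romidepsin over saline (horizontal axis) against the negative log10 of the unadjusted p (vertical axis, log scale) for the 14809 genes tested. Red points are named genes from the ranked picks, and blue points the genes chosen by role (Shank3 and Hdac8 are labelled). The dashed line marks the unadjusted threshold of 0.05. Lag3 had the smallest p, with an adjusted p of 0.602.

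Lag3 (chromosome 6, 124904359 to 124912434, GRCm38) encodes an inhibitory receptor best known from T cells. Its level in CPM, counts scaled to a common library total, was 9.11, 7.12 and 7.44 in saline 1 to 3 and 18.03 and 14.7 in romidepsin 1 and 2. Both romidepsin libraries were above all saline libraries. The fold was 2.05 (95% interval 1.57 to 2.67), and the log2 fold change of 1.04 ranged from 0.88 to 1.18 over the 18 alternative settings. Etnppl (chromosome 3, 130617448 to 130635750) encodes an astrocyte enzyme that breaks down phosphoethanolamine. Its level was 28.1, 23.6 and 16.8 against 10.9 and 11.7 CPM, with saline 1 to 3 before and romidepsin 1 and 2 after the word against in all values below. Both romidepsin libraries were lower, but the saline libraries differed among themselves by more than saline 3 differed from romidepsin. The fold was 0.489 (95% interval 0.353 to 0.677), and the log2 fold change of -1.03 ranged from -1.20 to -0.84 over the alternatives.

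Behind Lag3, the 12 genes with the smallest p on the higher side included enzymes, matrix and transport genes. The rule that chose these genes asked for groups that do not overlap and a small p, so neither adds support, and all but Lag3 had an adjusted p of 1.00. Prss23, which encodes a serine protease, stood at 18.2, 19.6 and 22.7 against 29.7 and 32.5 CPM (log2 fold change 0.64, SE 0.13). Of its exonic bases 25.4% lie opposite another gene's exons, and the strand setting of the counting is not given, so its reads may not all be its own. Slc7a5, which encodes the light chain of the large neutral amino acid transporter, stood at 58.6, 47.9 and 49.5 against 74.8 and 68.5 CPM (0.46, SE 0.10). Nefh, the heavy neurofilament chain of large axons, stood at 40.9, 38.9 and 44.4 against 55.8 and 61.6 CPM (0.51, SE 0.13). Both romidepsin libraries were above every saline library in all 3 genes, and for Prss23 and Nefh the gap was wider than the range within either group.

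The regulators Lhx6 and Fkbp5 were also on that side. Lhx6, the homeobox factor of cortical interneurons from the medial ganglionic eminence, stood at 20.5, 18.7 and 23.9 against 28.1 and 28.4 CPM. Fkbp5, a cochaperone of the glucocorticoid receptor, stood at 23.8, 25.04 and 18.98 against 26.8 and 39.3 CPM. Here romidepsin 2 was far above romidepsin 1, which lay close to saline 2. The metalloprotease gene Adam19, the basement membrane collagen gene Col4a2, the ribosomal RNA processing gene Utp11l, the pericyte potassium channel subunit gene Abcc9 and Spata2l were on that side too, with log2 fold changes between 0.34 (Spata2l) and 0.67 (Abcc9).

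Among the 12 genes of the lower side, which included Etnppl and Fos, the romidepsin libraries lay close together in Thbs2. Thbs2, a thrombospondin of the extracellular matrix, stood at 10.7, 10.7 and 10.3 against 6.99 and 6.89 CPM (log2 fold change -0.60, SE 0.17). Lcorl, a transcriptional regulator gene, stood at 32.6, 35.5 and 29.8 against 25.3 and 21.2 CPM (-0.49, SE 0.13). Zfpm2, a cofactor of GATA transcription factors, stood at 25.9, 33.9 and 24.6 against 16.5 and 20.2 CPM (-0.62, SE 0.17). In these genes each romidepsin library was below each saline library, and the size of the step differed from library to library. Opalin, a membrane protein gene of myelinating oligodendrocytes, stood at 12.6, 11.2 and 20.4 against 7.88 and 6.79 CPM (-0.98, SE 0.27), with saline 3 well above the other saline libraries. The remaining genes were the clustered protocadherin gene Pcdhb7, the methyltransferase gene Mettl10, Nkain3, the ribosomal protein paralog gene Rpl22l1, the zinc finger factor gene Tshz2 and the histone demethylase gene Kdm4c, with log2 fold changes between -0.82 (Nkain3) and -0.38 (Kdm4c). Of the exonic bases of Tshz2, 77.6% lie in exons of another gene that is read from the opposite strand (28.3% for Rpl22l1), so their reads cannot be told apart from the partner's.

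**Figure D2:**
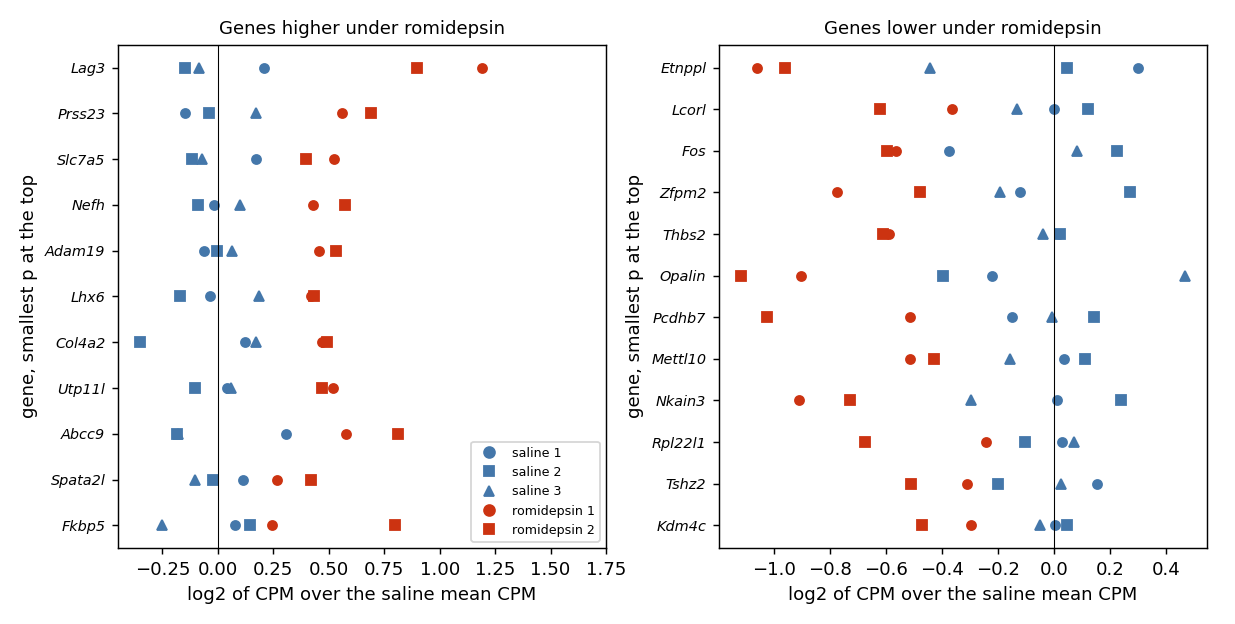
Each point is 1 library, placed at the log2 of its CPM over the mean of the 3 saline libraries, for named genes with the smallest p higher (left) and lower (right) under romidepsin. Blue points are saline and red points romidepsin libraries, and symbols mark the library number. Romidepsin points lie on 1 side of all saline points because the rule asked for that, and the Fkbp5 and Opalin rows show how far libraries of 1 group can differ.

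The 5 largest fitted folds per direction, among genes at an unadjusted p under 0.05 and a mean log2 CPM of at least 1 with pseudogenes left out, included few well-read genes. Outside those limits the folds of Eomes (-4.59, below that level) and of the pseudogene H2-T10 (2.20) were larger. Apart from Mid1 their mean log2 CPM was at most 3.29 (Lag3). Mid1, a ubiquitin ligase gene on the X chromosome, stood at 27.4, 22.5 and 27.4 against 33.98 and 90.1 CPM, with romidepsin 2 far above the other 4 libraries (log2 fold change 1.26, SE 0.37). The metalloprotease gene Pappa2, which frees insulin-like growth factors, stood at 1.9001, 2.31 and 3.85 against 3.45 and 7.31 CPM, with overlap. Palm3 and Ciita, the transactivator of MHC class II genes, had log2 fold changes of 0.98 and 0.92, and Lag3 was the fifth gene. On the lower side Cdhr1, a cadherin-related gene, stood at 5.96, 16.4 and 15.4 against 3.25 and 3.601 CPM (-1.84, SE 0.75). Saline 1 lay nearer to the romidepsin libraries than to the other saline libraries. The same held for Frmd7, at 1.77, 4.51 and 4.62 against 1.18 and 1.34 CPM, and for the releasing hormone gene Trh, at 1.97, 5.03 and 4.23 against 1.67 and 1.65. Myo18b and Ccdc122 had log2 fold changes of -1.08 and -1.06.

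Single libraries decided the genes that passed when a library was left out. Rap1gap2, which encodes a GTPase-activating protein of Rap, stood at 449, 42.3 and 37.6 CPM in saline 1 to 3 and 499 and 469.5 in romidepsin. Saline 1 stood 10.6-fold above saline 2, the wild-type libraries held 391 to 484 CPM, and so saline 2 and 3 were far below the other 6 libraries. With all libraries its log2 fold change was 1.43 and it did not pass. Without saline 1 it was 3.60 at an adjusted p of 1.67e-09. Wdfy1, an endosomal protein gene, behaved likewise, at 42.8, 20.1 and 20.6 against 43.7 and 60.8 CPM (1.36 without saline 1, adjusted p = 0.00287). Eomes, a transcription factor gene of olfactory bulb and developing cortex, had 2, 36 and 38 reads under saline and 1 and 1 under romidepsin. Its romidepsin libraries lay under the floor of 3 counts, so its fitted log2 fold change (-5.26 without saline 1, adjusted p = 0.0175) depends on the prior count and is no bound.

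Leaving out romidepsin 1 rests the drug group on romidepsin 2, which is then assumed to vary like the other groups. Mid1 passed in that case (log2 fold change 1.804, adjusted p = 0.00155). H2-T10, annotated as a transcribed pseudogene of the MHC class I family, stood at 1.97, 0.943 and 1.67 against 1.58 and 12.96 CPM, and passed with 3.04 (adjusted p = 0.0107). The predicted gene Gm5177, with 4, 3 and 0 reads under saline and 6 and 75 under romidepsin, passed with 5.12 (adjusted p = 0.0206). In each of these 3 genes romidepsin 1 was at or near the level of the saline libraries. Without saline 2, saline 3 or romidepsin 2, 0 genes passed, with 387, 581 and 245 at an unadjusted p under 0.05 (edgeR).

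**Figure D3:**
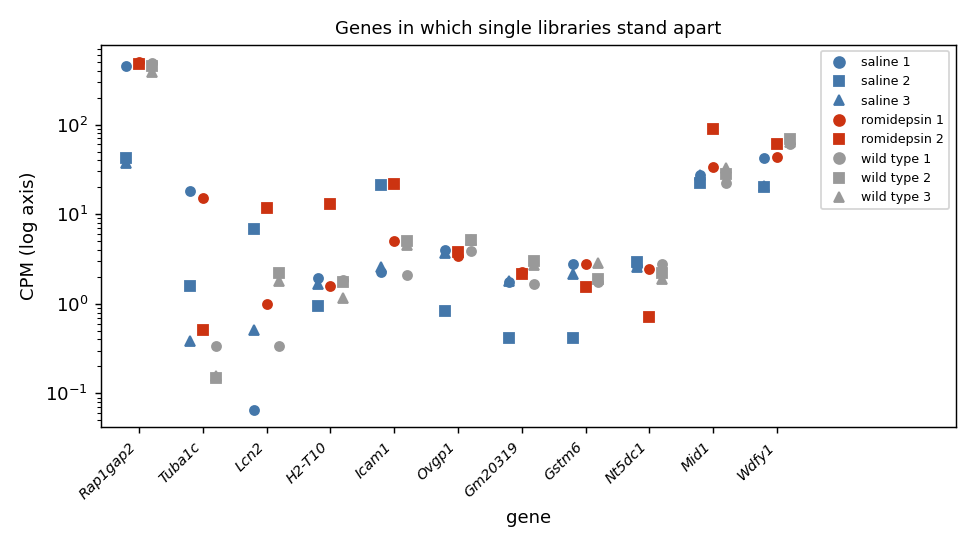
CPM (log axis) in each of the 8 libraries for the 9 genes in which some libraries stood at least 3-fold apart from the rest, and for Mid1 and Wdfy1. Blue points are saline, red romidepsin and grey wild-type libraries. Rap1gap2 is low in saline 2 and 3 only, and Mid1 and H2-T10 are high in romidepsin 2 only. The genes were picked after their values were seen.

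The mutated gene and the drug's targets were measured first among the genes chosen by role. Shank3 (chromosome 15, 89493013 to 89560261) stood at 316, 252 and 301 against 315 and 313 CPM. The groups overlapped, with saline 2 lowest. The fold was 1.08 (95% interval 0.93 to 1.26). Counts over the whole gene include reads from the remaining exons of the deleted copy, so they do not check the genotype. Of the class I deacetylases, Hdac1 stood at 25.2, 22.5 and 24.2 against 23.6 and 19.7 CPM. Hdac2, its partner in the same complexes, stood at 74.2, 76.8 and 69.5 against 78.5 and 74.2 CPM. Hdac3, the enzyme of the NCoR complexes, stood at 66.8, 59.6 and 70.9 against 75.7 and 68.9 CPM. All 3 overlapped between the groups, and the widest of their 95% intervals, for Hdac1, ran from 0.755 to 1.08 fold. Hdac8, the X-linked class I enzyme that works outside the corepressor complexes, stood at 11.7, 10.4 and 11.3 against 7.78 and 9.98 CPM, lower in both romidepsin libraries (-0.33, SE 0.17, adjusted p = 1.00 in edgeR).

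Transcripts of the proteins that work with these enzymes differed little. Of 41 corepressor subunit genes 20 were higher and 21 lower in mean, with a median of -0.0022. The unadjusted p was under 0.05 in 3 of them (3.26% of all genes). Over all genes tested, 49% were higher and 51% lower in mean. List medians were small throughout and moved with single libraries. With 1 of the 5 libraries left out in turn, the median changed sign in 13 of 29 functional and 4 of 12 marker lists, and it moved by over 1.5 times in 37 of all 41. Chd4, a nucleosome remodeler of the NuRD complex, stood at 168, 159 and 168 against 184 and 184 CPM, each romidepsin library above each saline library. Arid4b, a subunit of the Sin3 complex, stood at 62.2, 57.8 and 64.5 against 51.6 and 55.05 CPM, below them. Of 14 other deacetylase genes, class II enzymes and sirtuins included, 9 were higher and 5 lower, with 0 at an unadjusted p under 0.05. The smallest p of that list was that of the neuronal deacetylase gene Hdac5, at 239, 202 and 229 against 238 and 252 CPM, with overlap. Without saline 2 the median of these other deacetylases was -0.01, and without romidepsin 1 -0.02.

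Acetyl writers and readers held 18 higher and 12 lower genes of 30, 0 of them at an unadjusted p under 0.05. Their groups did not overlap in 8 genes higher and 4 lower, against 10.8% and 10.2% of all genes. Crebbp, the CREB-binding acetyltransferase, stood at 56.3, 52.1 and 50.3 against 60.6 and 60.4 CPM. Each romidepsin library was above each saline library, and the log2 fold change was 0.19. Among 42 genes for histone and DNA methylation 24 were higher and 18 lower, including Tet3 and Kdm5c higher (0.20 and 0.19) and Kdm4c lower (-0.38), the 3 of that list at an unadjusted p under 0.05. Of 30 remodeler genes 19 were higher and 11 lower, with the smallest p for the BAF complex gene Smarcd2, at 12.4, 10.3 and 11.9 against 14.6 and 14.2 CPM. Without romidepsin 2 the genes higher numbered 15 of the writers and readers, 20 of the methylation genes and 13 of the remodelers, so none of these 3 lists then had more genes higher than lower. Of 20 histone genes 17 were tested, with 8 higher and 9 lower (median -0.03). The replacement histone gene H3f3b stood at 146, 146 and 149 against 135 and 132 CPM. The linker histone gene H1f0, which deacetylase inhibitors are known to raise in cultured cells, stood at 94.9, 96.1 and 108 against 92.2 and 88.9 CPM. Both genes were slightly lower in each romidepsin library than in each saline library. Some histone genes have near-identical copies, so reads that match several copies may be missing from their counts.

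Genes known to be raised by deacetylase inhibitors in cultured cells did not stand higher as a group. Of the 18 members, 4 were higher and 14 lower in mean, with a median log2 fold change of -0.06 against -0.0029 over all genes. The median was -0.19 without romidepsin 1, -0.11 without saline 2 and -0.05 without romidepsin 2. The unadjusted p was under 0.05 in 0 higher and 2 lower genes (1.73% and 1.53% of all genes). The groups did not overlap in 1 gene higher and 5 lower (10.8% and 10.2% of all genes). Cdkn1a (chromosome 17, 29090979 to 29100722) stood at 29.7, 40.5 and 31.3 against 32.5 and 40.7 CPM. Romidepsin 1 lay among the saline libraries, and romidepsin 2 was level with saline 2. Its fold was 1.09 (95% interval 0.871 to 1.35), so a 1.5-fold difference was outside the interval. Gadd45b, a growth arrest gene that neuronal activity also induces, stood at 10.4, 14.4 and 13.3 against 9.36 and 8.13 CPM (-0.52, SE 0.19). Txnip, which binds thioredoxin, stood at 26.7, 19.8 and 20.01 against 19.8 and 14.5 CPM, where romidepsin 1 was level with saline 2 (21.4% of its exonic bases lie opposite another gene). Klf4, a growth-control factor gene, stood at 7.08, 5.76 and 5.64 against 4.33 and 4.63 CPM. Romidepsin 2 was the lowest library for Gadd45b and Txnip, and romidepsin 1 for Klf4. Hexim1, the inhibitor of the elongation kinase P-TEFb, was the member higher without overlap, at 52.6, 58.7 and 57.6 against 58.7 and 66.7 CPM, with romidepsin 1 barely above saline 2.

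The promoter of Cdkn1a is shown because deacetylase inhibitors are known to act on it through GC boxes, the binding sites of Sp transcription factors. RefSeq lists 2 starts for the gene on GRCm38.p6. The second has 2 matches to GGGCGG, in capitals, in the 250 bases before it (chr17:29093519-29093768, plus strand, read 5′ to 3′). The first has 0.
Cdkn1a, second start: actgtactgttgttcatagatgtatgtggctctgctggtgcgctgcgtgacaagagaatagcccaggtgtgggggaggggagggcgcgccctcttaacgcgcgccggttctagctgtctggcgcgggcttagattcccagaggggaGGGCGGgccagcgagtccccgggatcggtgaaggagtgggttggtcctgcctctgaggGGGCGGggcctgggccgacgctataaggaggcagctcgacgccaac
The motif GGGCGG or its complement CCGCCC was found in that window in 32.7% of 32851 promoters of the table. It was found at any start in 62.3% of 11202 tested genes with an entry, and in 12 of 15 genes of the list with an entry. Most tested genes thus hold the same letters at some start. The first share counts promoters and the others count genes, so they differ in unit. The gene and the motif were chosen with their values known.

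Most activity-induced genes were lower in mean, but their summed levels overlapped between the groups. Neuronal firing induces these immediate early genes within minutes through kinases that act on CREB and SRF. Of the 40 tested, 13 were higher and 27 lower in mean, with 0 higher and 5 lower at an unadjusted p under 0.05 (1.73% and 1.53% of all genes). The groups did not overlap in 2 higher and 10 lower (10.8% and 10.2% of all genes). The list summed to 2842.1, 3368.1 and 3333.6 CPM in saline 1 to 3 and to 2984.2 and 3080.8 in romidepsin 1 and 2. Saline 1 thus had the lowest sum, below both romidepsin libraries. The median log2 fold change was -0.09 against -0.0029 over all genes. It was -0.03 without saline 2, -0.05 without romidepsin 1, -0.13 without saline 1 and -0.14 without romidepsin 2, so saline 2 and romidepsin 1 weighed most toward a lower value.

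Fos (chromosome 12, 85473890 to 85477274), a subunit of the AP-1 factor, stood at 46.98, 71.2 and 64.5 against 41.2 and 40.2 CPM. Both romidepsin libraries were below saline 1, the lowest saline library, while saline 2 and 3 were far higher. The log2 fold change was -0.57 (SE 0.15), ranging from -0.74 to -0.44 over the alternatives. Nr4a1, a nuclear receptor, stood at 142, 183 and 181 against 129 and 135 CPM, with saline 1 again the lowest of its group (-0.35, SE 0.12). Fosb, another AP-1 subunit, stood at 26.4, 30.4 and 28.7 against 19.4 and 24.1 CPM (-0.39, SE 0.14). The phosphatase gene Dusp1 stood at 37.9, 58.99 and 51.3 against 39.3 and 38.2 CPM, where saline 1 lay below both romidepsin libraries. Bdnf, the neurotrophin gene, stood at 54.3, 47.8 and 50.1 against 46.1 and 52.6 CPM, with overlap.

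The Fos and Nr4a1 promoters are shown because these members had the smallest p of the list and hold the core of the CREB site, TGACG or its complement CGTCA, in capitals. Each run is the 250 bases before the RefSeq start on GRCm38.p6, plus strand, read 5′ to 3′, for Fos at chr12:85473640-85473889 and for Nr4a1 at chr15:101266596-101266845.
Fos: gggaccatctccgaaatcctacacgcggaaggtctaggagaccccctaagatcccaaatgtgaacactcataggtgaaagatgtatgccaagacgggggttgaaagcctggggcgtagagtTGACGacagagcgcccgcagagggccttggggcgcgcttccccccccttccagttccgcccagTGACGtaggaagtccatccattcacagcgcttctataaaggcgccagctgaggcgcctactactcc
Nr4a1: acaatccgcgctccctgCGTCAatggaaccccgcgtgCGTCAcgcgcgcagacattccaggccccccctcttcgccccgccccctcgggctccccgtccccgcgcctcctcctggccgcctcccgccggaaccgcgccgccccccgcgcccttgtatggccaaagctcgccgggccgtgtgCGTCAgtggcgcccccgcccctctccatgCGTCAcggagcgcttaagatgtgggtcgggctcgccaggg
The window of Fos held 2 matches and that of Nr4a1 held 4. The core was present in 19 of the 29 early genes with an entry (65.5%), in 29.6% of tested genes with an entry and in 17.8% of all promoters of the table. A gene was counted if any of its starts held a match, so shares of genes and of promoters differ in unit. A match is a description of the letters, and these genes and this motif were added after the values were seen.

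Synaptic genes differed by small amounts, mostly upward in mean. Of 35 postsynaptic scaffold genes 23 were higher and 12 lower. The groups did not overlap in 12 higher and 2 lower (10.8% and 10.2% of all genes). With the replicate number as a block, 18 of the 35 were higher, and the median of 0.04 became 0.02. Tanc1, a scaffold that binds PSD-95, stood at 14.2, 13.5 and 13.6 against 15.5 and 19.7 CPM and was the 1 member at an unadjusted p under 0.05. Shank1, a family member of Shank3, stood at 756, 588 and 701 against 758 and 804 CPM, where romidepsin 1 barely exceeded saline 1 and saline 2 was lowest. Lrrtm4, a synaptic adhesion gene, stood at 28.3, 33.8 and 28.3 against 28.3 and 21.1 CPM, with romidepsin 1 just below the lowest saline libraries (26% of its exonic bases lie opposite another gene). Of 38 presynaptic genes 28 were higher and 10 lower (median 0.08), with 3 higher at an unadjusted p under 0.05 (1.73% of all genes). The groups did not overlap in 13 higher and 1 lower (10.8% and 10.2% of all genes). The active zone gene Bsn stood at 735, 699 and 736 against 822 and 876 CPM (0.23, SE 0.08). The vesicle protein gene Sv2c stood at 7.14, 6.601 and 4.23 against 8.18 and 10.9 CPM. Cplx1, which regulates vesicle fusion, stood at 499, 492 and 605 against 616 and 648 CPM. Their adjusted p was 1.00 (edgeR). The median of the presynaptic list stayed between 0.06 and 0.10 in the 18 alternatives, so the direction of that small shift did not turn. These settings reuse the same libraries and are no separate support. With the replicate number as a block, 23 of the 38 presynaptic genes were higher.

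NMDA receptor subunits open a calcium-permeable channel at these synapses. Grin1, the obligatory subunit, stood at 464, 474 and 511 against 522 and 527 CPM, above all saline libraries in both (0.12, SE 0.10). Some 29.9% of its exonic bases lie opposite another gene. Grin2a, a subunit of mature synapses, stood at 48.03, 60.4 and 48.2 against 47.7 and 59.7 CPM. Grin2b, the subunit that dominates early in life, stood at 109, 138 and 91.7 against 91.8 and 104 CPM. Both overlapped between the groups, with saline 2 highest. The 95% interval of the fold was 0.943 to 1.251 for Grin1, 0.825 to 1.28 for Grin2a and 0.699 to 1.07 for Grin2b. Of 20 AMPA and kainate receptor and auxiliary genes 13 were higher and 7 lower, with 0 at an unadjusted p under 0.05, and the AMPA subunit gene Gria2 stood at 678, 795 and 739 against 673 and 667 CPM. Metabotropic glutamate receptor genes were lower in 6 of 7, with the smallest p for the presynaptic receptor gene Grm2, at 55.8, 69.05 and 65.8 against 58.5 and 47.9 CPM with overlap. GABA receptor genes were lower in 8 of 14, with the smallest p for Gabrb1, at 32.9, 32.5 and 28.9 against 27.1 and 28.8 CPM. Their list medians were 0.07 for NMDA, 0.06 for AMPA and kainate, -0.05 for metabotropic and -0.09 for GABA receptors. Without saline 2 the GABA receptor median turned to 0.02, with 10 of 14 genes higher. Without saline 3 the NMDA median was 0.01 and the metabotropic one -0.13, and without romidepsin 2 the AMPA and kainate median was 0.02.

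Actin regulators shape dendritic spines and act downstream of Rac1 and its kinases. Of 91 such genes 52 were higher and 39 lower, with a median of 0.01 (0.0051 to 0.04 with 1 library left out). The unadjusted p was under 0.05 in 4 higher and 0 lower (1.73% and 1.53% of all genes). Myh9, a nonmuscle myosin, stood at 116, 99.1 and 104 against 129 and 131 CPM (0.29, SE 0.09). The cofilin phosphatase gene Ssh2 stood at 56.3, 52.4 and 48.6 against 62.3 and 64.8 CPM. Arhgef2, a guanine nucleotide exchange factor gene, and Baiap2, a Rac effector, had log2 fold changes of 0.19 and 0.19. Rac1 itself stood at 293, 286 and 284 against 272 and 277 CPM, with 54.8% of its exonic bases opposite another gene. Limk1, the kinase that inactivates cofilin, stood at 72.4, 59.4 and 92.3 against 77.4 and 82.2 CPM, with overlap. Actb, the beta-actin gene, stood at 647, 604 and 641 against 693 and 678 CPM. Rac1 was lower and Actb higher in both romidepsin libraries than in all saline libraries, and the 95% interval of the fold was 0.852 to 1.07 for Rac1 and 0.964 to 1.23 for Actb.

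In the Wnt pathway 29 of 55 genes were higher and 26 lower (median 0.01, from -0.0083 to 0.03 with 1 library left out). Ctnnb1, the gene of beta-catenin, the pathway's transcriptional effector, stood at 606, 621 and 607 against 567 and 574 CPM. Both groups were tight and did not overlap, and the fold was 0.933 (95% interval 0.831 to 1.05). Cdh2, the N-cadherin that binds beta-catenin, was the member at an unadjusted p under 0.05, at 147, 153 and 145 against 126 and 136 CPM (-0.18, SE 0.08).

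Ion channel genes also stood slightly higher. Of 57 potassium channel genes 41 were higher and 16 lower. The unadjusted p was under 0.05 in 4 higher and 0 lower (1.73% and 1.53% of all genes). The groups did not overlap in 11 higher and 0 lower (10.8% and 10.2% of all genes). Kcnc1, a channel subunit of fast-spiking interneurons, stood at 176, 160.0 and 189.8 against 207 and 216 CPM (0.27, SE 0.09). Its relative Kcnc2 stood at 131, 111 and 132 against 142 and 147 CPM. In both genes the romidepsin libraries were above the saline libraries, with saline 2 lowest. The leak channel gene Kcnk1 had a log2 fold change of 0.19. Of 28 sodium, calcium and HCN channel genes 20 were higher and 8 lower. Without overlap there were 8 higher and 0 lower (10.8% and 10.2% of all genes). Hcn2, which carries the hyperpolarization-activated current, stood at 109, 85.9 and 113 against 122 and 122 CPM (0.25, SE 0.10). The medians of the 2 lists were 0.03 and 0.08, and ran from 0.02 to 0.07 and from 0.04 to 0.12 with 1 library left out. With the replicate number as a block, 32 of 57 (median 0.01) and 19 of 28 (median 0.06) were higher. Of the neurofilament genes Ina stood at 118, 122 and 135 against 136 and 151 CPM, and all 4 tested were higher in mean, though the light and medium chains overlapped between groups and only 2 were higher without romidepsin 2.

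**Figure D4:**
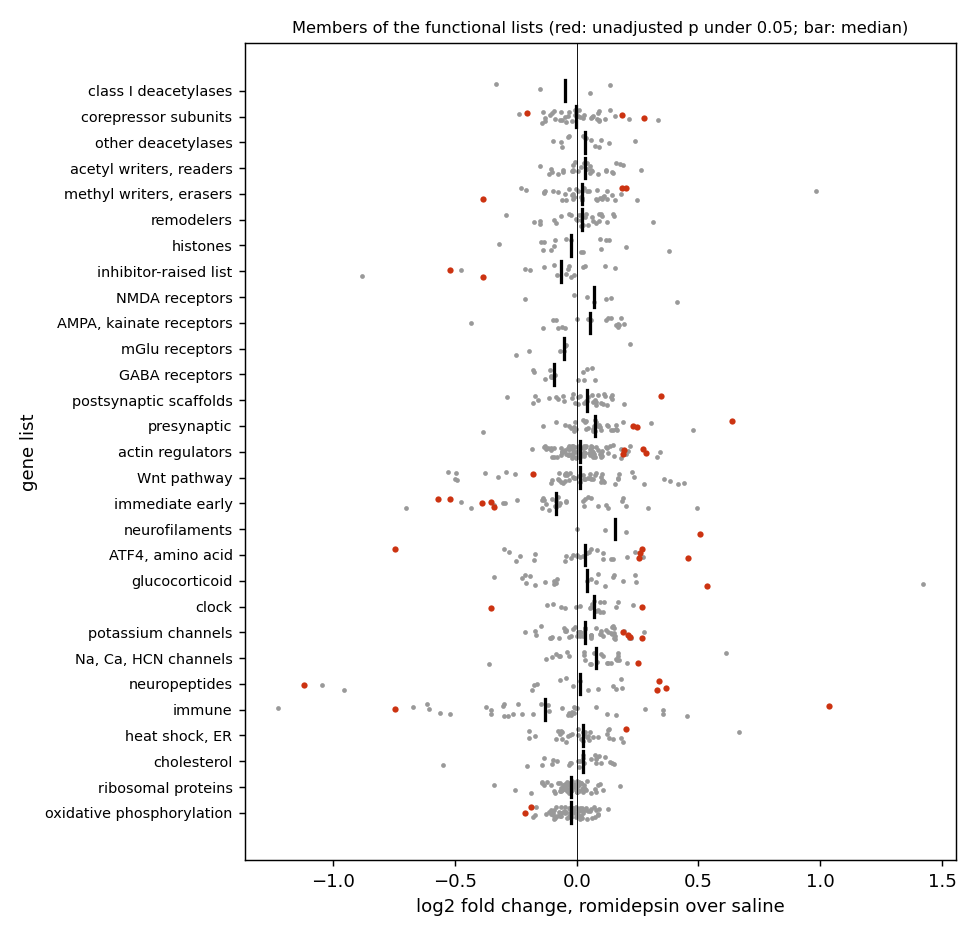
Each point is 1 tested member of a functional gene list, at its log2 fold change of romidepsin over saline (horizontal axis). Red points have an unadjusted p under 0.05, and the black bar is the median of the list. Medians of the lists of at least 10 members lie between -0.13 (immune) and 0.08 (presynaptic; sodium, calcium and HCN channels), and the immediate early row holds 5 red points, all on the lower side.

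Stress and metabolic lists held few genes with small p. ATF4 targets and amino acid genes, which respond to amino acid shortage and endoplasmic reticulum stress, were higher in 18 and lower in 12 of 30. Of them 4 higher and 1 lower had an unadjusted p under 0.05 (1.73% and 1.53% of all genes). Beside Slc7a5 the higher ones included Ddit3, a stress transcription factor gene, at 22.7, 24.1 and 23.1 against 27.5 and 28.6 CPM. Herpud1, which acts in the removal of misfolded proteins, stood at 39.6, 41.9 and 37.4 against 44.2 and 50.7 CPM. The proline synthesis gene Aldh18a1 stood at 21.4, 25.7 and 22.8 against 28.1 and 27.3 CPM. In these 3 genes both romidepsin libraries were above all saline libraries. Pycr1, the next enzyme of proline synthesis, was lower, at 3.08, 4.296 and 3.33 against 2.46 and 1.749 CPM. Of 35 heat shock and endoplasmic reticulum genes 22 were higher and 13 lower, with Dnajb5 at an unadjusted p under 0.05 (0.20). The median of that list, 0.03, was 0.12 without romidepsin 1, 0.12 without saline 2, -0.03 without saline 3 and -0.07 without romidepsin 2.

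Glucocorticoid-responsive genes were higher in 12 and lower in 11 of 23. Zbtb16, which glucocorticoids induce, stood at 48.4, 47.7 and 40.4 against 48.5 and 59.5 CPM, with romidepsin 2 far above the rest as for Fkbp5. The list's median of 0.04 was 0.19 without romidepsin 1, -0.08 without saline 3 and -0.09 without romidepsin 2, so the romidepsin libraries differed from each other. Clock genes were higher in 15 of 21 (median 0.07, from 0.02 to 0.12 with 1 library left out), with Per2, a repressor of the clock, at 50.8, 53.3 and 46.7 against 53.2 and 68.3 CPM. Cry1, its partner, stood at 17.6, 12.6 and 18.1 against 12.8 and 12.4 CPM. Both overlapped between the groups. The hour of tissue collection is not given in the sources used here. Cytosolic ribosomal protein genes were lower in 50 of 77 and nuclear-encoded respiratory chain genes in 48 of 74, both with a median of -0.02. Without romidepsin 2 the ribosomal list turned, with 49 genes higher and a median of 0.03. With the replicate block 41 were higher (median 0.0077). The respiratory chain median ran from -0.05 to -0.02 with 1 library left out. In the respiratory chain list the groups did not overlap in 4 genes higher and 14 lower (10.8% and 10.2% of all genes). Ndufa7 and Atp5l had an unadjusted p under 0.05 (-0.21 and -0.19), and 24.4% of the exonic bases of Atp5l lie opposite another gene. Every interval of that list lay inside 1.5-fold. Cholesterol synthesis genes were higher in 17 of 27 (median 0.02), with 0 at an unadjusted p under 0.05. Without saline 2 only 10 were higher (median -0.04), and without romidepsin 1 it was 11 (median -0.03).

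Immune genes were lower in 29 of 38 and higher in 9 (median -0.13), many of them with few reads. Lag3 was the exception with the largest higher value. The MHC class I gene H2-T23, of a multi-copy family, stood at 12.5, 18.2 and 16.8 against 11.6 and 6.997 CPM (-0.75, SE 0.24). Irf9, a factor of the interferon response, stood at 11.1, 8.697 and 10.8 against 11.8 and 16.3 CPM, with romidepsin 2 highest. The median was -0.06 without romidepsin 2 and -0.18 without romidepsin 1.

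Markers of cortical cell types were read in each library, since tissue makeup can differ between samples. In bulk tissue, fewer cells of a type and less RNA per cell cannot be told apart. Excitatory neuron markers summed to 3121, 3352 and 3185 CPM under saline and 3216 and 3319 under romidepsin, with overlap. Interneuron markers summed to 2609, 2358 and 2598 CPM and to 2801 and 2751, higher in both romidepsin libraries. Of 29 members 22 were higher and 7 lower (median 0.13). Without overlap there were 11 higher and 1 lower (10.8% and 10.2% of all genes). The unadjusted p was under 0.05 in 6 higher and 1 lower (1.73% and 1.53% of all genes). The lower one was Calb2, a calcium-binding protein gene (-0.63), which the olfactory and septal list also holds. Next to Lhx6, Kcnc1 and Kcnc2, the neuropeptide gene Npy stood at 69.9, 55.7 and 71.3 against 80.97 and 84.4 CPM. Tac1, the precursor gene of substance P, which the striatal list also holds, stood at 15.7, 11.9 and 13.1 against 17.04 and 18.3 CPM. The calcium-binding protein gene Pvalb stood at 25.7, 22.8 and 39.6 against 38.5 and 40.03 CPM. Npy and Tac1 did not overlap between groups, while Pvalb in saline 3 was as high as under romidepsin. Gad1, the GABA-synthesizing enzyme of all these cells, stood at 307, 313 and 311 against 326 and 331 CPM (0.08, SE 0.08), a smaller step without overlap. The list median stayed between 0.09 and 0.19 in the 18 alternatives. Kcnc1 and Kcnc2 belong to this list and to the potassium channels, and the part of interneuron content in the channel and presynaptic values was not tested.

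Vessel markers stood higher and their libraries overlapped. The 26 endothelial and mural markers summed to 645, 493 and 538 CPM under saline and 694 and 608 under romidepsin. Of them 23 were higher and 3 lower (median 0.23), 5 and 0 at an unadjusted p under 0.05 (1.73% and 1.53% of all genes). Flt1, a VEGF receptor, stood at 47.8, 31.9 and 38.3 against 56.05 and 48.8 CPM. The von Willebrand factor gene Vwf stood at 15.004, 15.5 and 11.03 against 18.2 and 19.3 CPM. The tight junction gene Cldn5, which defines endothelium in brain, stood at 31.2, 19.2 and 30.9 against 33.4 and 22.8 CPM. Saline 2 was lowest and romidepsin 1 highest in Flt1 and Cldn5. The median was 0.07 without romidepsin 1, 0.12 without saline 2 and 0.38 without saline 1, so its size rested on those libraries. Abcc9, a member of this list, and Col4a2, a collagen of vessel basement membranes, were among the genes with the smallest p, and the part of vessel content in their values was not tested. Microglia markers were higher in 20 of 21 (median 0.12), with the smallest p for the protease gene Ctss, at 64.996, 66.5 and 65.7 against 86.1 and 74.1 CPM. The defining receptor gene Cx3cr1 overlapped, at 74.1, 60.7 and 70.2 against 71.3 and 65.9 CPM. Their median was -0.04 without romidepsin 1.

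Oligodendrocyte markers were lower in 21 of 22 (median -0.19), with Opalin the 1 member at an unadjusted p under 0.05. The list summed to 4815, 3872.5 and 6838 CPM under saline and 4266 and 4825 under romidepsin. Saline 3 was far above the rest, and without it the median was 0.05, with 13 genes higher. The myelin gene Mbp, given above, followed saline 3 too. Opalin had a log2 fold change of -0.98 with all libraries, and its values ranged from -1.13 to -0.71 over the alternatives. Precursor markers were higher in 9 of 12 (median 0.04), but in 5 without saline 2 (median -0.02) and in 6 without romidepsin 1 (median 0.0085). Gpr17, a receptor of committed precursors, stood at 104, 86.2 and 92.1 against 128 and 126 CPM. Enpp6, an enzyme of newly formed oligodendrocytes, stood at 7.93, 6.496 and 10.1 against 4.33 and 5.25 CPM. Gpr17 was higher and Enpp6 lower in both romidepsin libraries. The defining precursor gene Pdgfra stood at 89.6, 73.1 and 78.9 against 83.04 and 79.3 CPM, with overlap. Astrocyte markers were higher in 16 of 25 (median 0.02), with Aqp4, the water channel of their endfeet, at 179, 159 and 133 against 183 and 154 CPM. Without romidepsin 1 only 7 astrocyte markers were higher (median -0.03), and without saline 2 it was 9 (median -0.04). The filament gene Gfap stood at 114, 129.7 and 90.9 against 67.97 and 87.97 CPM. Etnppl stood apart in size from every other member of that list, whose lowest was Gfap at -0.52.

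Markers of tissue next to the prefrontal cortex also differed between libraries. Meningeal markers were lower in 19 of 23 (median -0.29) and summed to 1089, 1061 and 502 CPM under saline and 720 and 555 under romidepsin. Saline 3 was the lowest of the 5 libraries, and the median was -0.02 without saline 1 and -0.01 without romidepsin 2. The prostaglandin synthase gene Ptgds stood at 678, 711 and 308 against 398 and 332 CPM. Olfactory and septal markers were lower in 16 of 17 tested (median -0.79), with 5 lower at an unadjusted p under 0.05 (1.53% of all genes). Without overlap there were 7 lower and 1 higher (10.2% and 10.8% of all genes). The olfactory and septal markers summed to 311, 378 and 314 CPM under saline and 282 and 277 under romidepsin. Zic1, a factor of septal and olfactory neurons, stood at 21.9, 16.3 and 14.6 against 10.2 and 11.7 CPM. Calb2 stood at 16.9, 27.5 and 23.7 against 14.97 and 13.99 CPM. The other 3 lower genes at that p, Cdhr1, Trh and Eomes, have been given above, and saline 1 was lowest of its group in 4 of the 5, Zic1 being the exception. Striatal markers were higher in 12 of 16 (median 0.13), with the GTPase gene Rasd2 at 54.6, 51.7 and 52.5 against 60.98 and 70.1 CPM. The enkephalin gene Penk stood at 28.2, 37.2 and 33.9 against 40.7 and 42.4 CPM. The defining dopamine receptor gene Drd1 overlapped between the groups, at 17.2, 14.04 and 20.9 against 15.4 and 17.9 CPM. Choroid plexus and red cell markers were low in all 5 libraries, at 4.83 to 10.1 and 0.524 to 2.57 summed CPM, with 6 of the 9 red cell genes at 0 in all of them. The part of these tissues in the values of other genes was not tested.

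**Figure D5:**
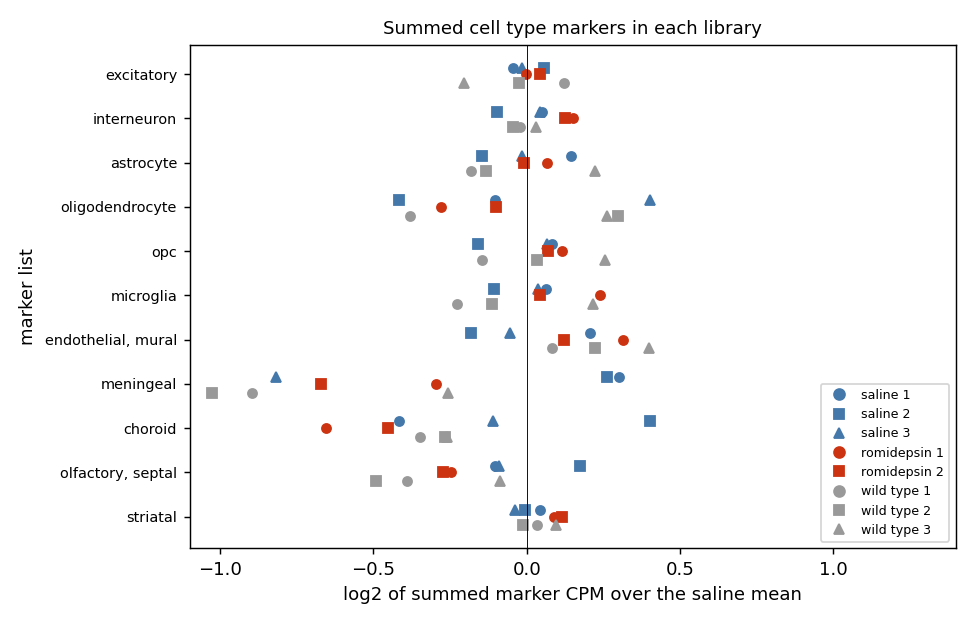
Log2 of the summed CPM of each marker list over the mean of the 3 saline libraries (horizontal axis), 1 point per library, for 11 lists. Blue points are saline, red romidepsin and grey wild-type libraries. Interneuron and striatal sums are higher, and olfactory and choroid sums lower, in both romidepsin libraries than in all saline libraries. Oligodendrocyte, vessel and meningeal sums spread as widely within the saline group as between the groups.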

How the data were processed

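Poly(A) RNA libraries of prefrontal cortex were grouped by the titles in the labels. The authors deposited raw counts of reads per gene, in a table for each library. The submitters' processing notes name bcl2fastq 2.17.1.14 for base calls, TopHat2 2.1.1 for alignment to mm10/GRCm38 and HTSeq 0.6.1 for counting. Annotation and strand setting: not given in the sources used here, so reads of genes that overlap on opposite strands cannot be told apart. The tables of 7 libraries end with the 5 summary rows of HTSeq, which were left out (saline 1 has none). In those 7, 32.4% to 35.3% of alignments fell on genes.

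Of 24420 genes common to all libraries, 14809 passed filterByExpr and 9611 were removed. The 5 compared libraries held 7783537 to 15156318 counts on genes. A robust quasi-likelihood model (edgeR 4.0.16, R 4.3.3) with TMM scaling and a coefficient for each group used all 8 libraries, with a common biological coefficient of variation of 9.33%. The threshold was 0.05 for the Benjamini-Hochberg adjusted p over all genes tested. SE and 95% intervals come from the same fit. Levels are CPM scaled by TMM. Groups do not overlap where both romidepsin libraries lie outside the range of the saline libraries. Alternatives used limma 3.58.1 and DESeq2 1.42.0, other scalings and filters, a replicate block, and each library left out. A run on counts simulated from the fitted means and spread checked the code of the fit only, not its behaviour with outlying libraries. Coordinates and promoters are from RefSeq GRCm38.p6, and the overlap of exons from GENCODE. Cdkn1a (10%), Penk (10.8%), Ina (14.1%) and Bdnf (14.4%) also have exonic bases opposite another gene, which is not marked beside their values.

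The members, the 41 gene lists and the named genes were chosen with earlier results of these data known. The rule names 15 genes by role, and the 12 per direction with the smallest p among non-overlapping genes at or above a mean log2 CPM of 1. It adds the 5 per direction with the largest fold at an unadjusted p under 0.05 and the same level minimum, up to 4 members per list with defining markers, and genes that passed in another setting. Pseudogenes, unnamed predicted genes and ribosomal RNA were left out of the ranked picks, and some genes that the rule picks are not reported here.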

Additional observations from a re-analysis of the deposited data

How the results depend on the processing

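The count of genes passing, 0 with edgeR, was 2 with DESeq2 and 0 with DESeq2 on all genes, a setting added after the data were seen. With 1 library left out it ranged from 0 to 3 (3 without saline 1, 3 without romidepsin 1). The 483 genes at an unadjusted p under 0.05 became 292 with DESeq2 and 297 with DESeq2 on all genes, and ranged from 245 (without romidepsin 2) to 702 with 1 library left out. With the replicate number as a block, 0 genes passed and 566 had an unadjusted p under 0.05, 336 of them shared. Deviations of same-numbered libraries from their group means had r = 0.103 and 0.0595 over genes, with 2 pairs. With 2 romidepsin libraries the deviations of 1 mirror those of the other, so no judgement of strength is drawn. The labels do not say that the number marks a shared source. Of 138 named genes under 18 alternatives, 126 kept their direction throughout, and 24 of 2483 values reversed. The 12 genes with a reversed value were named as markers or by role. Most of the others were picked for a small p or a large fold, so their kept direction adds no support. The block gave -0.0070 for Hdac2, -0.048 for Grin2a and 0.031 for Mbp, and a fit of only the 5 libraries -5.79e-05 for Cx3cr1. With 1 library left out, those that changed sign ran from -0.14 to 0.049 for Bdnf, -0.13 to 0.20 for Grin2a, -0.68 to 0.061 for Col1a1, -0.036 to 0.27 for Limk1, -0.058 to 0.10 for Pdgfra, -0.075 to 0.071 for Cx3cr1, -0.25 to 0.30 for Cldn5, -0.038 to 0.21 for Aqp4, -0.39 to 0.13 for Mbp, -0.18 to 0.079 for Drd1 and -0.054 to 0.27 for Cdkn1a. The cause of these changes was not tested. With 2 romidepsin libraries, differences of genes with few reads were not detectable at this depth unless large.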

Other observations

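Some genes stood apart in libraries of both groups or in a single library, so that no difference between drug and saline follows from them. Among the 13410 genes at or above a mean log2 CPM of 1, 9 had a gap of at least 3-fold (CPM + 0.1) between neighbouring libraries of the 5. Tuba1c, an alpha-tubulin gene of a family with near-identical members, stood at 18.3, 1.57 and 0.385 CPM in saline 1 to 3 and 15.3 and 0.514 in romidepsin 1 and 2. It was high in saline 1 and romidepsin 1, which also had the smallest difference over all genes of any pair. Lcn2, a secreted protein gene of the acute phase response, stood at 0.0655, 6.81 and 0.513 against 0.985 and 11.6 CPM. Icam1, an adhesion molecule gene that inflammatory signals induce, stood at 2.29, 20.96 and 2.56 against 5.02 and 21.6 CPM. Here the saline libraries come first and the romidepsin libraries after the word against, and both genes were highest in saline 2 and romidepsin 2. In saline 2 alone Ovgp1, Gm20319 and Gstm6 were low (0.838, 0.419 and 0.419 CPM), and in romidepsin 2 alone Nt5dc1 was low (0.72 CPM). These genes were picked after their values were seen.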
